A study of Homo sapiens with 9 samples.

Results

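Luminal breast transcription factors, hormone receptors, keratins and secretory markers were followed across sensitive and taxane-resistant MDA-MB-231 cells. The set held 10 genes chosen by name: ESR1, PGR, GATA3, FOXA1, AGR2, SPDEF, KRT8, KRT18, KRT19 and MUC1. Every probe set that the array annotation gave to one of them was taken, which made 26 of the 22215 human probe sets and 10 of the 11963 genes with a probe set of their own. ESR1 had 9 of these probe sets, SPDEF 5, GATA3 and MUC1 3 each, and the other genes 1 each, and none of the 26 named a further gene. Probe sets of 1 gene share their samples and are not replicates.

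MDA-MB-231 is an established human breast cancer line of the mammary gland that grows attached to the flask and is used as a model of hormone receptor negative, mesenchymal-like breast cancer. Total RNA was taken from 3 separate passages of each of 3 cultures and hybridized to Affymetrix HU133A arrays, 9 arrays in all. Verapamil blocks calcium channels and the drug efflux pump P-glycoprotein, and the sensitive cells were cultured with 1 µM of it. The docetaxel-resistant cells grew in 1 µM verapamil plus 2 nM docetaxel, and the paclitaxel-resistant cells in 1 µM verapamil plus 7 nM paclitaxel. All 3 groups therefore carried verapamil, and there was no group without it. Docetaxel and paclitaxel are taxanes, which bind and stabilize microtubules. Drug and resistance cannot be told apart, because each resistant culture was sampled only in the presence of its taxane. Each resistance was represented by 1 line, so the spread below is among passages and not among separately selected lines.

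Luminal cells line the mammary ducts and carry the estrogen receptor program. In them GATA3 and the pioneer factor FOXA1 open or mark chromatin for the estrogen receptor ESR1, whose targets include the progesterone receptor PGR, while SPDEF, an ETS family factor, and AGR2, a protein disulfide isomerase of the endoplasmic reticulum, belong to the secretory side of the program. KRT8, KRT18 and KRT19 are the intermediate filament proteins of simple epithelia, and MUC1 is a mucin of the apical membrane.

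Of these genes FOXA1, AGR2 and SPDEF were higher in both resistant lines. The regions just before their annotated starts are shown because these are the members that moved together. Each is the 250 bases upstream of the start in RefSeq on GRCh38.p14, written 5′ to 3′ on the gene's own strand, which is the minus strand for all 3. Capitals mark the only match found to a motif searched.

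FOXA1, chr14:37595250-37595499: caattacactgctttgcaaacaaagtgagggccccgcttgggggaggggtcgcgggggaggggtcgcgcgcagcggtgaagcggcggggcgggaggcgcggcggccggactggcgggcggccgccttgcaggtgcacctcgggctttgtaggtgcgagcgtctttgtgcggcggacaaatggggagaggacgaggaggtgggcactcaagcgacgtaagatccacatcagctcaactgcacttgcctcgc

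AGR2, chr7:16805000-16805249: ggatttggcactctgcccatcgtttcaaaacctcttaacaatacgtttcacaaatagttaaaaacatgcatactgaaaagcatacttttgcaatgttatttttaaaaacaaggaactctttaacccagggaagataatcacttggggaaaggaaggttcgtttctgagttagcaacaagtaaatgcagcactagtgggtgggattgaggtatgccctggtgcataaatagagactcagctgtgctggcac

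SPDEF, chr6:34556330-34556579: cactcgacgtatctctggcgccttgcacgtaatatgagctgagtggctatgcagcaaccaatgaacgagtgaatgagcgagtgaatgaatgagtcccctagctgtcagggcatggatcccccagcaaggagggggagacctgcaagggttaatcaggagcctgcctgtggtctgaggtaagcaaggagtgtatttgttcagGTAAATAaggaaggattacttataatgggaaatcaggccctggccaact

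The forkhead core TGTTTAC is 1 form of the site bound by FOXA1 and its relatives, and AGGTCA is the unit that estrogen response elements hold as a repeat. Both were searched on both strands, and of other forkhead forms only the variant given below was searched. Upstream windows were listed for 8 of the 10 genes, 21 windows in all, and those of KRT18 and KRT19 were not listed. None of the 21 windows held TGTTTAC or AGGTCA. Among all 35116 RefSeq windows of the same length, 2.98% held the first and 12.1% the second. The variant TATTTAC, added after the data were seen, was in 1 of the 21 windows, that of SPDEF, where it reads GTAAATA from 49 to 43 bases before the start, and in 2.39% of all windows. A match or its absence describes these letters in these windows only.

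All values below are the deposited probe set intensities on a linear scale, and differences are on the log2(intensity + 16) scale after quantile normalization, where changes of dim probe sets come out smaller than they are. A probe set was called when its adjusted p from limma, Benjamini-Hochberg over all 22215 probe sets, was below 0.05. In the docetaxel-resistant cells 5 of the 26 probe sets were higher, 0 were lower and 21 were not called. That is 19.2% called, against 17.7% of all probe sets called in either direction (9.34% higher and 8.32% lower). In the paclitaxel-resistant cells 6 of 26 were higher, 0 were lower and 20 were not called, which is 23.1% against 18.6% of all probe sets (9.21% higher and 9.37% lower). At an unadjusted limma p below 0.05 there were 8 of 26 in each of these comparisons, beside 6550 and 6617 of all 22215 probe sets. Without normalization between arrays 66.1% of all called probe sets were higher in docetaxel-resistant cells, beside 52.9% with it. The shares of members called in either direction were near the background, and the median difference over the 26 was -0.04 in docetaxel-resistant and 0.02 in paclitaxel-resistant cells, beside -0.05 and -0.03 over all probe sets. The called probe sets belonged to 3 genes in the first comparison (FOXA1, AGR2, SPDEF) and to 4 in the second, where ESR1 joined with 1 of its 9 probe sets.

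FOXA1 was read by 1 probe set, 204667_at. Its intensity was 4.35, 8.99 and 3.88 in the sensitive arrays, 24.1, 21.5 and 20.6 in the docetaxel-resistant arrays and 30.2, 26.4 and 28.0 in the paclitaxel-resistant arrays. All resistant arrays lay above all sensitive ones, and the 3 groups did not overlap. The group means were 5.74 ± 2.82, 22.1 ± 1.80 and 28.2 ± 1.93 (SD, n = 3). FOXA1 rose by 0.78 (SE 0.14, 95% interval 0.48 to 1.08, limma adjusted p 0.00209) in docetaxel-resistant and by 1.02 (SE 0.14, 0.72 to 1.31, adjusted p 0.000355) in paclitaxel-resistant cells. The ratios of the linear means were 3.84 and 4.91. With an offset of 1 in place of 16 the log2 differences were 1.79 and 2.17, with an offset of 64 they were 0.29 and 0.40, and both comparisons remained called under the 20 alternatives that tested it. The sensitive values are all under 16, a level that 24.0% to 27.0% of probe sets on each array did not reach, so the size of the ratio rests on values close to the lower end of the scale. The resistant values, 20.6 to 30.2, also lay under every array median (33.7 to 43.9). The low-value filter, which kept probe sets at or above the median level, left FOXA1 out, so its call was not tested there.

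AGR2 helps fold secreted proteins, mucins among them, and was read by 209173_at. Its intensity was 336, 148 and 233 in the sensitive arrays, 364, 430.3 and 549.97 in the docetaxel-resistant arrays and 648, 443 and 419 in the paclitaxel-resistant arrays. Every resistant array was above every sensitive one, although sensitive replicate 1 and docetaxel-resistant replicate 1 lay close together. The means were 239 ± 94.2, 448 ± 94.2 and 503 ± 126 (SD, n = 3). AGR2 rose by 0.80 (SE 0.20, 95% interval 0.37 to 1.23, limma adjusted p 0.0150) in docetaxel-resistant and by 1.05 (SE 0.20, 0.62 to 1.48, adjusted p 0.00313) in paclitaxel-resistant cells. The docetaxel call was lost without sensitive replicate 2 (difference 0.63, adjusted p 0.0595), sensitive replicate 3 (adjusted p 0.0506) or docetaxel-resistant replicate 3 (adjusted p 0.0664), and the difference was 0.52 (adjusted p 0.164) with the dimmest and the brightest array left out, a setting chosen after seeing the data. The paclitaxel call was kept in all of these.

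SPDEF gave a split reading. On 220192_x_at its intensity was 184, 110.2 and 139 in the sensitive, 240.1, 305 and 239 in the docetaxel-resistant and 299, 259 and 302 in the paclitaxel-resistant arrays. On 213441_x_at it was 196, 107 and 142, then 239, 299.8 and 225, then 275, 257 and 319.5. On 214404_x_at it was 135, 107 and 101, then 207, 269 and 208, then 223, 202 and 246. On these 3 probe sets every resistant array was above every sensitive one, while docetaxel- and paclitaxel-resistant arrays overlapped. SPDEF rose by 0.67 (SE 0.15, limma adjusted p 0.0103), 0.60 (SE 0.18, adjusted p 0.0342) and 0.74 (SE 0.17, adjusted p 0.00896) in docetaxel-resistant cells, in the order given. In paclitaxel-resistant cells it rose by 0.90 (adjusted p 0.00171), 0.85 (adjusted p 0.00539) and 0.83 (adjusted p 0.00434).

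The other 2 SPDEF probe sets, 213442_x_at and 214403_x_at, stayed between 36.95 and 57.2 on all 9 arrays, with overlapping groups. Their differences were -0.22 and -0.10 in docetaxel-resistant and -0.13 and -0.14 in paclitaxel-resistant cells, none called. Averaging all 5 probe sets gave 0.34 (adjusted p 0.0863, not called) and 0.47 (adjusted p 0.0236). All 5 carry the suffix that Affymetrix gives to probes which may also bind other transcripts, so which transcripts each reads is uncertain. Without docetaxel-resistant replicate 2 the docetaxel call of 220192_x_at had an adjusted p of 0.0507, and that of 213441_x_at was lost under 8 of its 18 docetaxel alternatives.

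**Figure D1:**
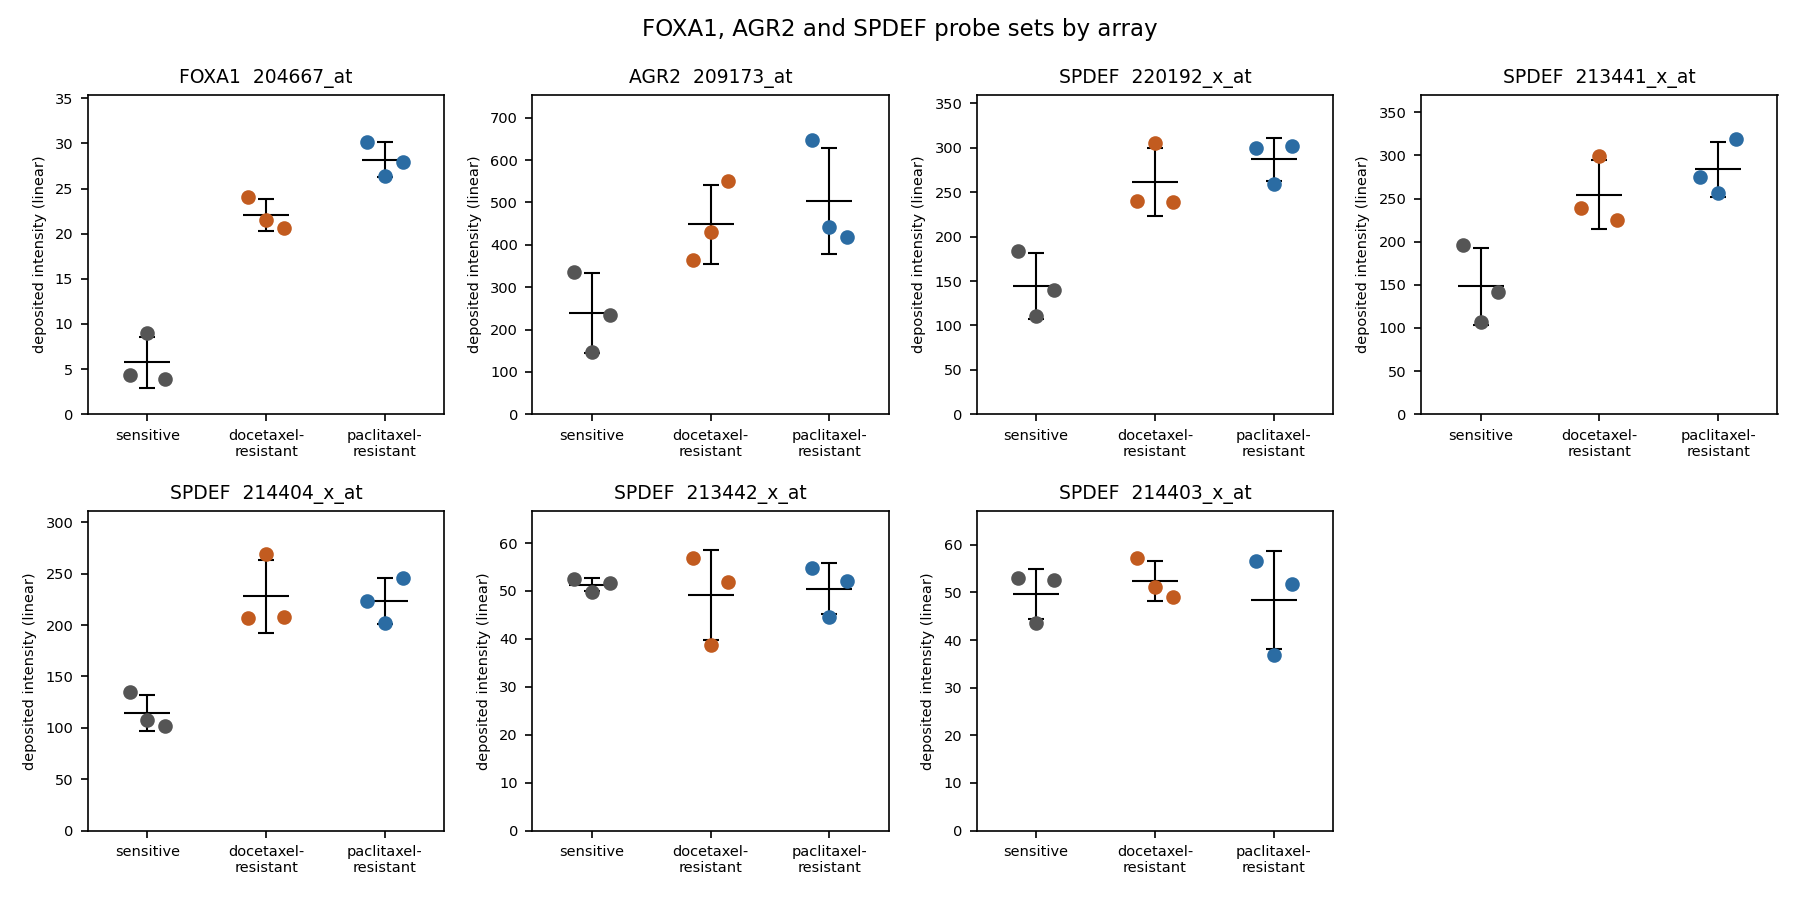
Deposited intensity (linear axis from 0) of the FOXA1, AGR2 and 5 SPDEF probe sets on each array, by group. Points are arrays, the horizontal mark is the group mean and the bar its SD (n = 3). FOXA1 runs from 3.88 to 8.99 in sensitive and from 20.6 to 30.2 in resistant arrays, and SPDEF 213442_x_at and 214403_x_at lie near 50 in all groups.

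The hormone receptors were low and, apart from 1 ESR1 probe set, not called. ESR1, the estrogen receptor, ran from 0 to 59.1 over its 9 probe sets and 9 arrays. Its probe set 205225_at read 6.03, 13.9 and 17.4 in the sensitive, 17.9, 17.5 and 16.4 in the docetaxel-resistant and 19.1, 11.2 and 20.2 in the paclitaxel-resistant arrays. These groups overlapped, and the differences were 0.21 (95% interval -0.17 to 0.58) and 0.20 (-0.17 to 0.58).

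The called ESR1 probe set was 211627_x_at, which read 0, 0.01 and 2.11 in the sensitive, 5.79, 4.91 and 6.02 in the docetaxel-resistant and 9.20, 13.8 and 4.52 in the paclitaxel-resistant arrays. Sensitive arrays were lowest and the resistant groups overlapped, with all 9 values under 16. The paclitaxel difference was 0.59 (SE 0.15, limma adjusted p 0.0186) and the docetaxel difference 0.37 (SE 0.15, adjusted p 0.130). The paclitaxel call was lost under 5 of its alternatives, among them the offset of 64 (0.18, adjusted p 0.0718), leaving out sensitive replicate 2 (adjusted p 0.0520), and leaving out paclitaxel-resistant replicate 1 (adjusted p 0.0505) or replicate 2 (adjusted p 0.0741). With the offset of 1 both were called, at 2.16 and 2.72. The other 8 ESR1 probe sets differed by -0.29 to 0.51 in docetaxel-resistant cells, and 217190_x_at by 0.51 (adjusted p 0.109) and 0.48 (adjusted p 0.132) in the docetaxel and paclitaxel comparisons.

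PGR, the progesterone receptor, read 11.7, 5.77 and 6.02 on 208305_at in the sensitive, 8.04, 9.32 and 8.69 in the docetaxel-resistant and 6.85, 10.5 and 11.5 in the paclitaxel-resistant arrays. The groups overlapped, with differences of 0.04 (95% interval -0.28 to 0.36) and 0.11 (-0.21 to 0.43). GATA3, the zinc finger factor of luminal identity, read 78.3, 75.4 and 88.5 on 209604_s_at in the sensitive, 80.5, 81.0 and 75.9 in the docetaxel-resistant and 77.0, 94.1 and 84.2 in the paclitaxel-resistant arrays. These values overlapped too, and the differences were -0.21 (-0.55 to 0.12) and -0.02 (-0.35 to 0.31). Its other 2 probe sets, 209603_at and 209602_s_at, ranged from 0.35 to 16.5 and were not called either.

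The luminal keratins were measured well above the low end of the scale and were not called in any comparison. KRT8 read 1167, 902 and 914 in the sensitive, 894, 1052 and 1053 in the docetaxel-resistant and 1171, 895 and 1116 in the paclitaxel-resistant arrays. Its partner KRT18, with which it forms filaments, read 3959, 3542 and 3420 in the sensitive, 3221, 3705 and 3048 in the docetaxel-resistant and 2863, 3283 and 3317 in the paclitaxel-resistant arrays. KRT19 read 1713, 1513 and 1330 in the sensitive, 1535, 1767 and 1552 in the docetaxel-resistant and 1658, 1518 and 1107 in the paclitaxel-resistant arrays. The groups overlapped for KRT8 and KRT19. For KRT18 every paclitaxel-resistant array was below every sensitive one on the deposited scale, while on the normalized log2 scale these groups overlapped. In docetaxel-resistant cells the differences were -0.04 for KRT8 (95% interval -0.34 to 0.25), -0.06 for KRT18 (-0.36 to 0.25) and 0.07 for KRT19 (-0.27 to 0.42). In paclitaxel-resistant cells they were 0.09 (-0.20 to 0.39), -0.10 (-0.40 to 0.21) and -0.08 (-0.42 to 0.26). Every one of these intervals lies below the fitted increases of FOXA1, AGR2 and SPDEF on 220192_x_at in the same comparison. Those probe sets were picked because they were called. In docetaxel-resistant cells the intervals of AGR2 (0.37 to 1.23) and SPDEF 220192_x_at (0.33 to 1.00) overlapped that of KRT19. SPDEF 213442_x_at (-0.22) and 214403_x_at (-0.10) fell inside the keratin intervals there. Differences between genes were not tested.

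MUC1 was read by 3 probe sets and was not called. On 213693_s_at it read 41.0, 41.0 and 56.1 in the sensitive, 35.3, 33.9 and 30.7 in the docetaxel-resistant and 35.7, 40.5 and 27.7 in the paclitaxel-resistant arrays. The resistant arrays all lay below the sensitive ones, with differences of -0.45 (95% interval -0.77 to -0.13, limma adjusted p 0.0515) and -0.38 (-0.70 to -0.07, adjusted p 0.0928). The docetaxel value sat at the threshold and was called lower with an offset of 64 (adjusted p 0.0444), with 1 test per gene (adjusted p 0.0457), and without paclitaxel-resistant replicate 2 (adjusted p 0.0453) or replicate 3 (adjusted p 0.0490). The other MUC1 probe sets, 207847_s_at and 211695_x_at, differed by -0.11 and -0.27 in docetaxel-resistant and by -0.22 and -0.32 in paclitaxel-resistant cells.

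**Figure D2:**
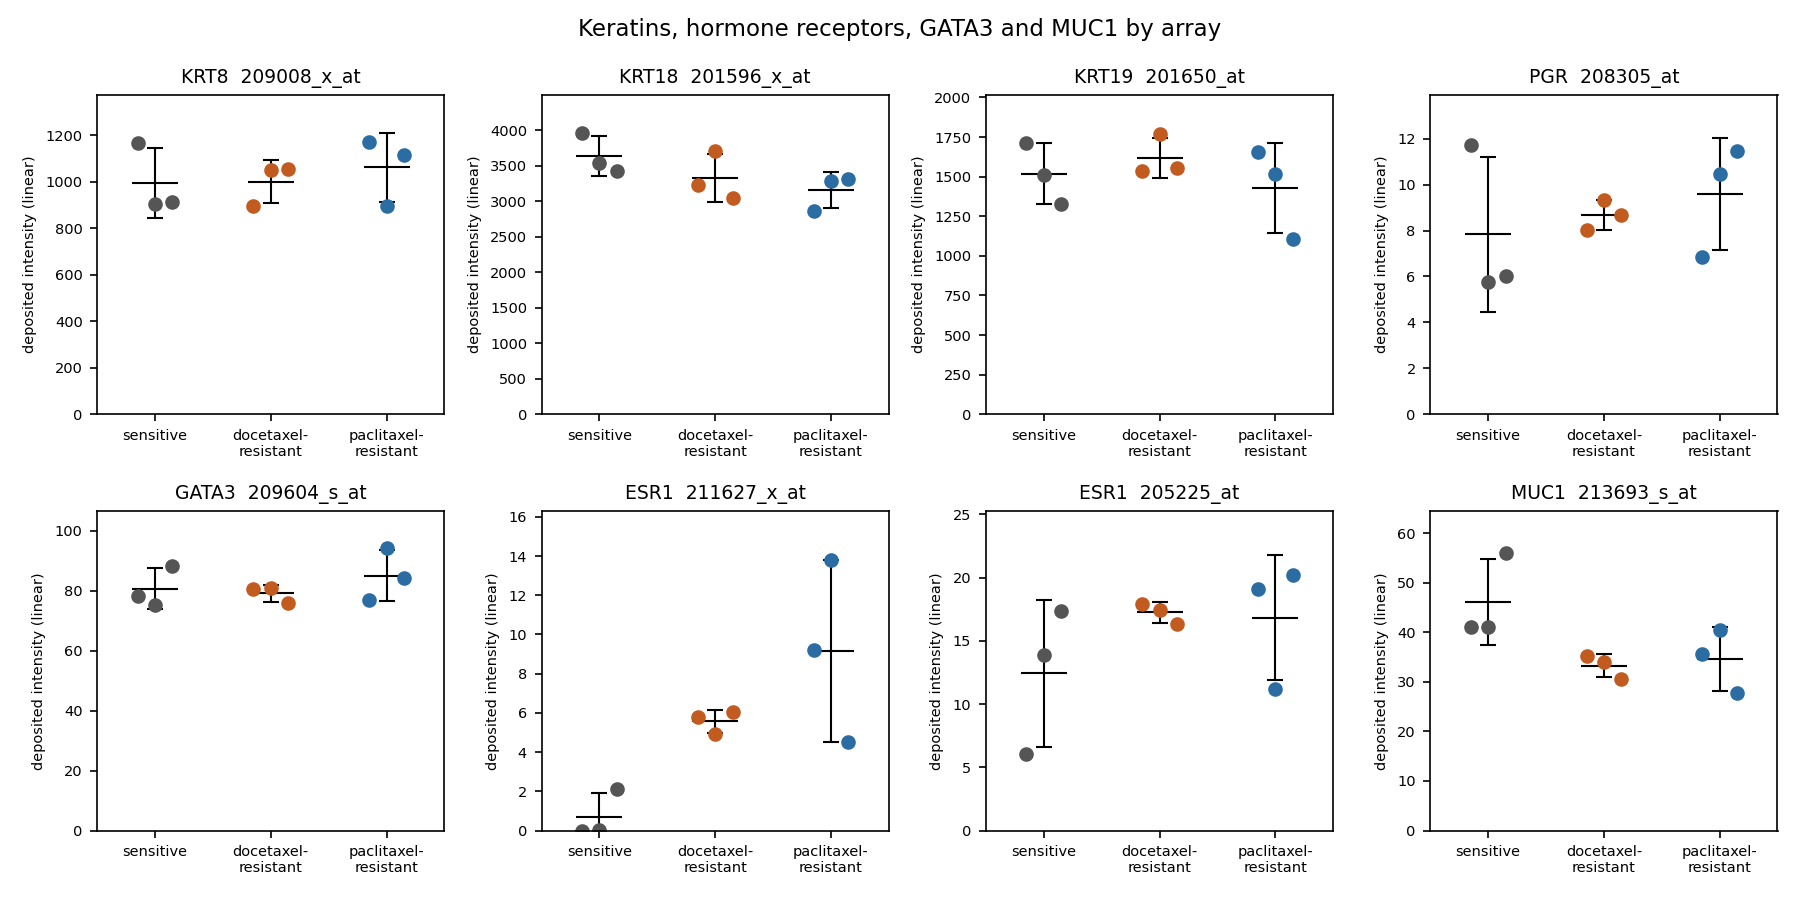
Deposited intensity (linear axis from 0) of KRT8, KRT18, KRT19, PGR, GATA3, ESR1 (2 of 9 probe sets) and MUC1 on each array, by group, with the group mean and SD (n = 3). The KRT8, KRT19, PGR and GATA3 groups overlap, KRT18 is 3420 to 3959 in sensitive and 2863 to 3317 in paclitaxel-resistant arrays, ESR1 211627_x_at is under 16 on all arrays, and MUC1 213693_s_at is 41.0 to 56.1 in sensitive and 27.7 to 40.5 in resistant arrays.

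Set against each other, the docetaxel- and paclitaxel-resistant lines showed no called member. Their taxane doses differed (2 nM and 7 nM), so this compares the lines as grown and not the drugs. By limma 0 of 26 probe sets were called, against 1.6% of all probe sets. At an unadjusted limma p below 0.05 there were 0 of 26, beside 2701 of all 22215 probe sets. The paclitaxel minus docetaxel differences ran from -0.15 (KRT19) to 0.25 (SPDEF 213441_x_at and AGR2). The FOXA1 arrays did not overlap between the lines, which held for 1 of 26 members and 19.3% of all probe sets (9.23% with the paclitaxel-resistant arrays above). Its difference was 0.24 (95% interval -0.06 to 0.53, limma adjusted p 0.555), and that of AGR2 was 0.25 (-0.18 to 0.68). These intervals leave room for a difference of either sign between the lines.

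**Figure D3:**
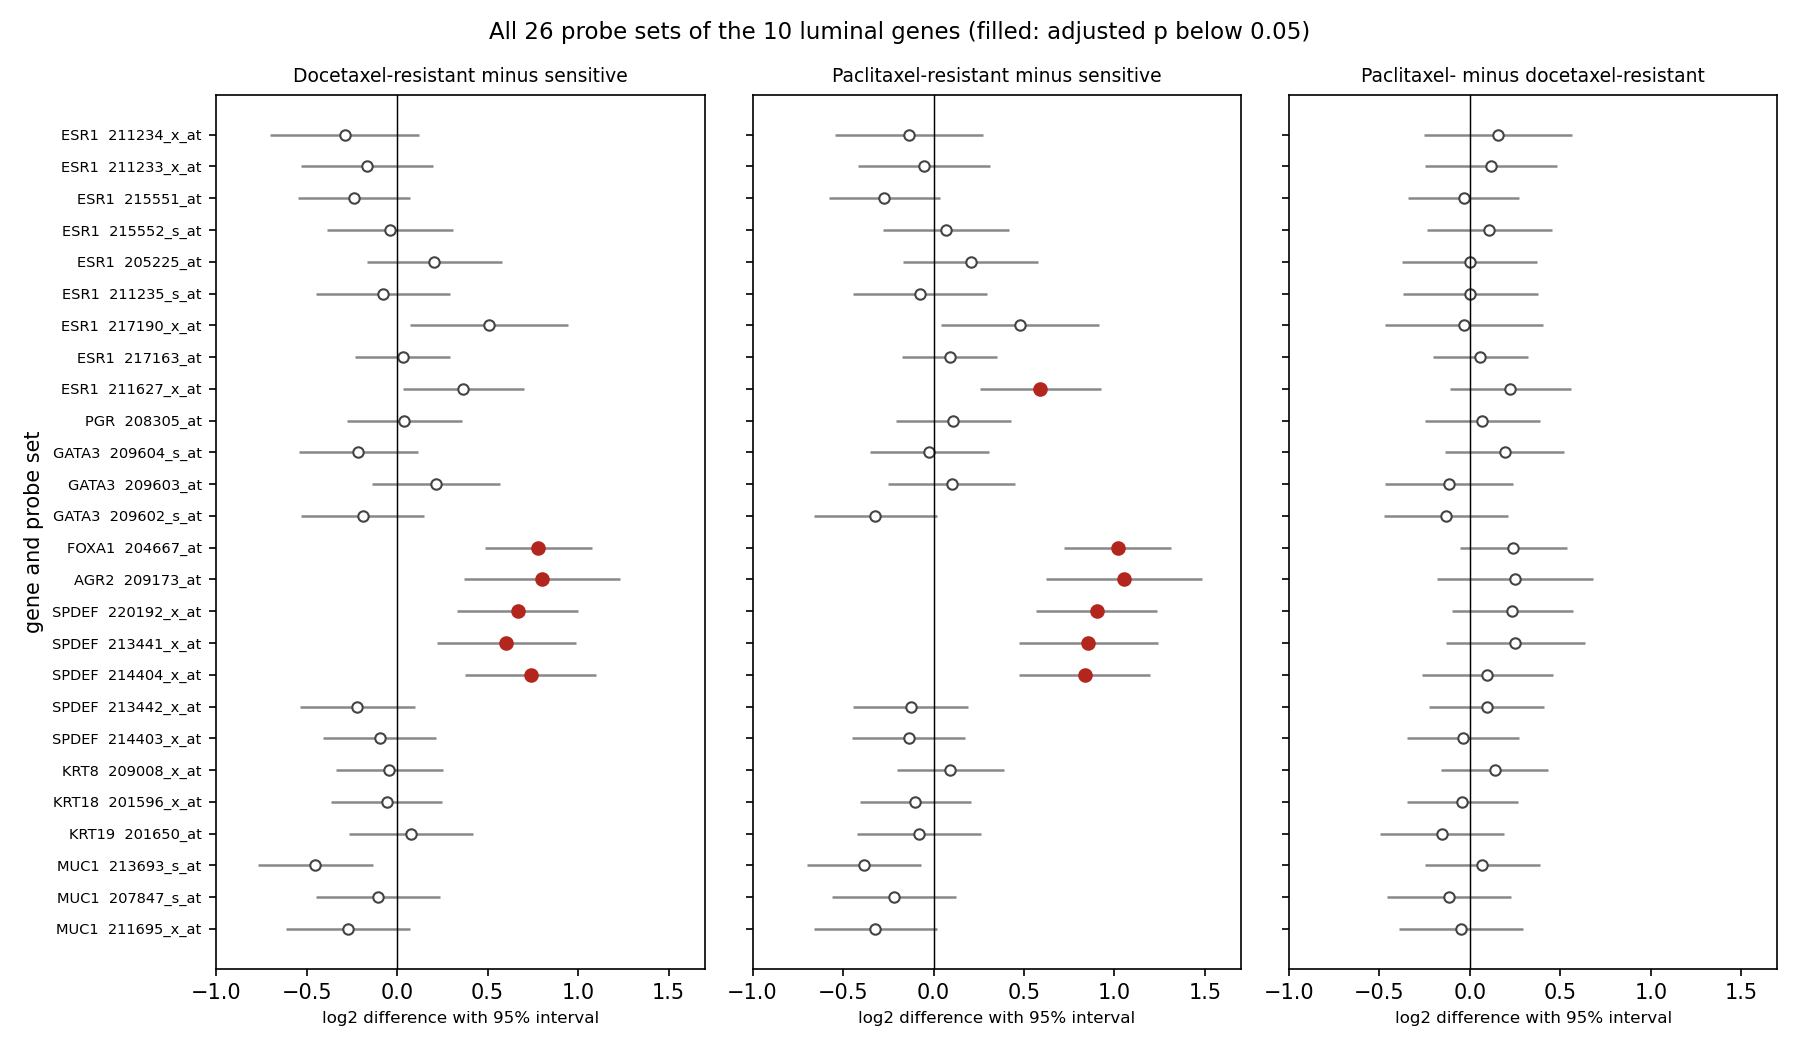
Log2 differences with 95% intervals for all 26 probe sets in the 3 comparisons, 1 row per probe set. Filled points have an adjusted p below 0.05, which are 5, 6 and 0 probe sets from left to right, all to the right of 0.

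On the normalized log2 scale the arrays of 8 of the 26 probe sets did not overlap between docetaxel-resistant and sensitive cells (6 above, 2 below), beside 34.2% of all probe sets. In the paclitaxel comparison it was 10 of 26 (7 above, 3 below), beside 32.1% of all. The resistant lines share the sensitive arrays as their control, so the members higher in both are not 2 separate observations.

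The genes that lie nearest to the 3 moving members in their pattern were looked up as those with the smallest root mean square log2 distance over the 9 arrays, after each probe set was centred on its mean in the sensitive arrays, among probe sets brighter than the median. For FOXA1 they were SPATA20 (0.10) and VAMP3 (0.10), a vesicle SNARE, among 9798 candidates. AGR2 was nearest to IARS1 (0.073), an isoleucyl tRNA synthetase, and SEL1L (0.11), a component of the degradation machinery of the endoplasmic reticulum. For SPDEF on 220192_x_at they were FGFR4 (0.098), a fibroblast growth factor receptor, and NQO1 (0.13), a quinone reductase. SEL1L was called higher than in sensitive cells on 1 of its 4 probe sets in each resistant line, and its other probe sets were not called. VAMP3 was called higher on 1 of 3 in docetaxel-resistant and 2 of 3 in paclitaxel-resistant cells. FGFR4 was called higher on 2 of 2 and NQO1 on 3 of 3 in each line. These are descriptions over 9 arrays in 3 groups.

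Around the members, related genes moved in both directions, counted per gene on the probe set with the highest mean. Of all 11963 genes 10.5% were higher and 9.81% lower in docetaxel-resistant cells, 10.6% and 10.4% in paclitaxel-resistant cells, and 0.961% and 0.945% between the resistant lines. Of 20 measured estrogen receptor targets 2 rose and 2 fell in docetaxel-resistant cells, and 4 rose and 2 fell in paclitaxel-resistant cells. The zinc transporter SLC39A6 rose by 1.88 (SE 0.28, limma adjusted p 0.000816) and 1.72 (adjusted p 0.00134). The secreted trefoil peptide TFF1 read 15.7, 23.0 and 29.3 in the sensitive, 43.4, 65.2 and 34.1 in the docetaxel-resistant and 270.3, 159 and 215 in the paclitaxel-resistant arrays. Its groups did not overlap, and it differed by 0.61 (adjusted p 0.0578, not called) and 2.55 (SE 0.20, adjusted p 7.54e-06). The protease inhibitor SERPINA1 fell by 3.55 and 2.44 on its brightest probe set, with 2 of its 3 probe sets called lower, and the lysosomal protease CTSD fell by 1.18 and 0.86. GREB1, a cofactor that is itself an estrogen target, was not called on its brightest of 3 probe sets (0.17 and -0.04), while 1 of the other probe sets was called lower in docetaxel-resistant cells (-0.56, adjusted p 0.0185).

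Of 16 measured coregulators and partners of the estrogen receptor 2 rose and 3 fell in docetaxel-resistant cells, and 4 rose and 2 fell in paclitaxel-resistant cells. The Mediator subunit MED1 rose by 1.33 and 1.13 and the glucocorticoid receptor NR3C1 by 1.24 and 1.56. The corepressor TLE3 fell by 0.71 and 0.95 and the coactivator CITED1 by 0.73 and 0.81. Of 19 other luminal and epithelial transcription factors 3 rose and 3 fell in each comparison. TFAP2C rose by 1.54 and 1.60, ZNF217 by 1.21 and 1.66 and the Notch target HES1 by 0.75 and 1.58, while TFAP2A fell by 1.07 and 0.84 and KLF4 by 1.16 and 1.14. TFAP2A was called on 1 of its 3 probe sets in each comparison, with the other two at -0.28 and -0.25 in docetaxel-resistant and -0.04 and 0.07 in paclitaxel-resistant cells, and KLF4 on 2 of 2. HES1 was called on 1 of 3 and 2 of 3 probe sets, and TFAP2C and MED1 on 1 of 2 and 2 of 2. XBP1, the secretory pathway factor, differed by 0.27 and 0.43 and was not called.

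Of 23 other luminal surface and secretory genes 3 rose and 1 fell in each comparison. The trefoil peptide TFF3 read 27.0, 39.3 and 39.4 in the sensitive, 349, 352 and 176 in the docetaxel-resistant and 1031, 717 and 811 in the paclitaxel-resistant arrays, with no overlap among the 3 groups. It rose by 2.37 (SE 0.27, limma adjusted p 0.000128) and 4.02 (SE 0.27, adjusted p 2.30e-06). The gel-forming mucin MUC5B rose by 1.05 and 2.38 on 213432_at, while its other probe set differed by -0.16 and 0.25 and was not called. The surface protein CD24 rose by 1.41 and 0.80, with 5 and 4 of its 6 probe sets called higher, and the second call was lost without sensitive replicate 2 or paclitaxel-resistant replicate 1 or 2. The adhesion proteins CDH1 and EPCAM and the receptors ERBB2 and ERBB3 were not called.

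Of 3 other keratins of simple epithelia only KRT7 was called, higher by 0.55 and 0.87 on 209016_s_at. Its second probe set, 214031_s_at, differed by -0.30 and -0.49, the latter called lower. On 209016_s_at the mean intensities were 424 (sensitive), 665 (docetaxel-resistant) and 806 (paclitaxel-resistant). On the much dimmer 214031_s_at they were 29.5, 23.3 and 17.7, in the same order. The mean of both probe sets was not called (limma adjusted p 0.479 and 0.277), so KRT7 has no settled direction. Of 12 proteins that anchor or partner keratins 4 rose and 2 fell in each comparison. The desmosomal proteins DSP and PKP2 rose by 1.55 and 1.06 in docetaxel-resistant and by 1.49 and 0.95 in paclitaxel-resistant cells. PKP2 was called on 1 of its 2 probe sets, and the other, 214154_s_at, differed by 0.18 and 0.23. PKP3 was called higher in both comparisons. PPL, a plakin that links filaments to the cell envelope, fell by 2.45 and fell by 2.53, in that order.

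Genes of the basal mammary layer and factors that oppose luminal fate were counted in the same way. Of 15 basal genes 3 rose and 1 fell in docetaxel-resistant cells, and 4 rose and 1 fell in paclitaxel-resistant cells, with the growth factor receptor EGFR higher by 1.56 and 1.49 on its brightest probe set (3 and 1 of its 6 probe sets were called). The smooth muscle protein TAGLN rose by 1.64 and 0.67. The kinase MYLK differed by -0.43 (not called) and rose by 1.38, and KRT15 differed by 0.01 (not called) and fell by 0.85. Of 10 luminal repressors 1 fell in docetaxel-resistant and 2 fell in paclitaxel-resistant cells, and the rest were not called. SOX4 fell by 1.21 and 1.09 and was called lower on 3 of its 5 probe sets in each comparison. Its probe sets not called, 213665_at and 213668_s_at, differed by -0.21 and -0.73 in docetaxel-resistant and by 0.03 and -0.74 in paclitaxel-resistant cells. SNAI2 fell by 0.72 (limma adjusted p 0.0433) in paclitaxel-resistant cells, a call lost under 12 alternatives. Of 11 protein disulfide isomerases other than AGR2, 3 rose and 1 fell in docetaxel-resistant and 1 rose and 1 fell in paclitaxel-resistant cells, with PDIA3 higher by 1.02 and 0.66 and ERP29 lower (-0.57 and -0.71). PDIA6 and TMX4 were called on their brightest probe set in docetaxel-resistant cells only. Over all their probe sets PDIA6 was called higher on 4 and 3 of 4, and TMX4 on 2 and 1 of 3.

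**Figure D4:**
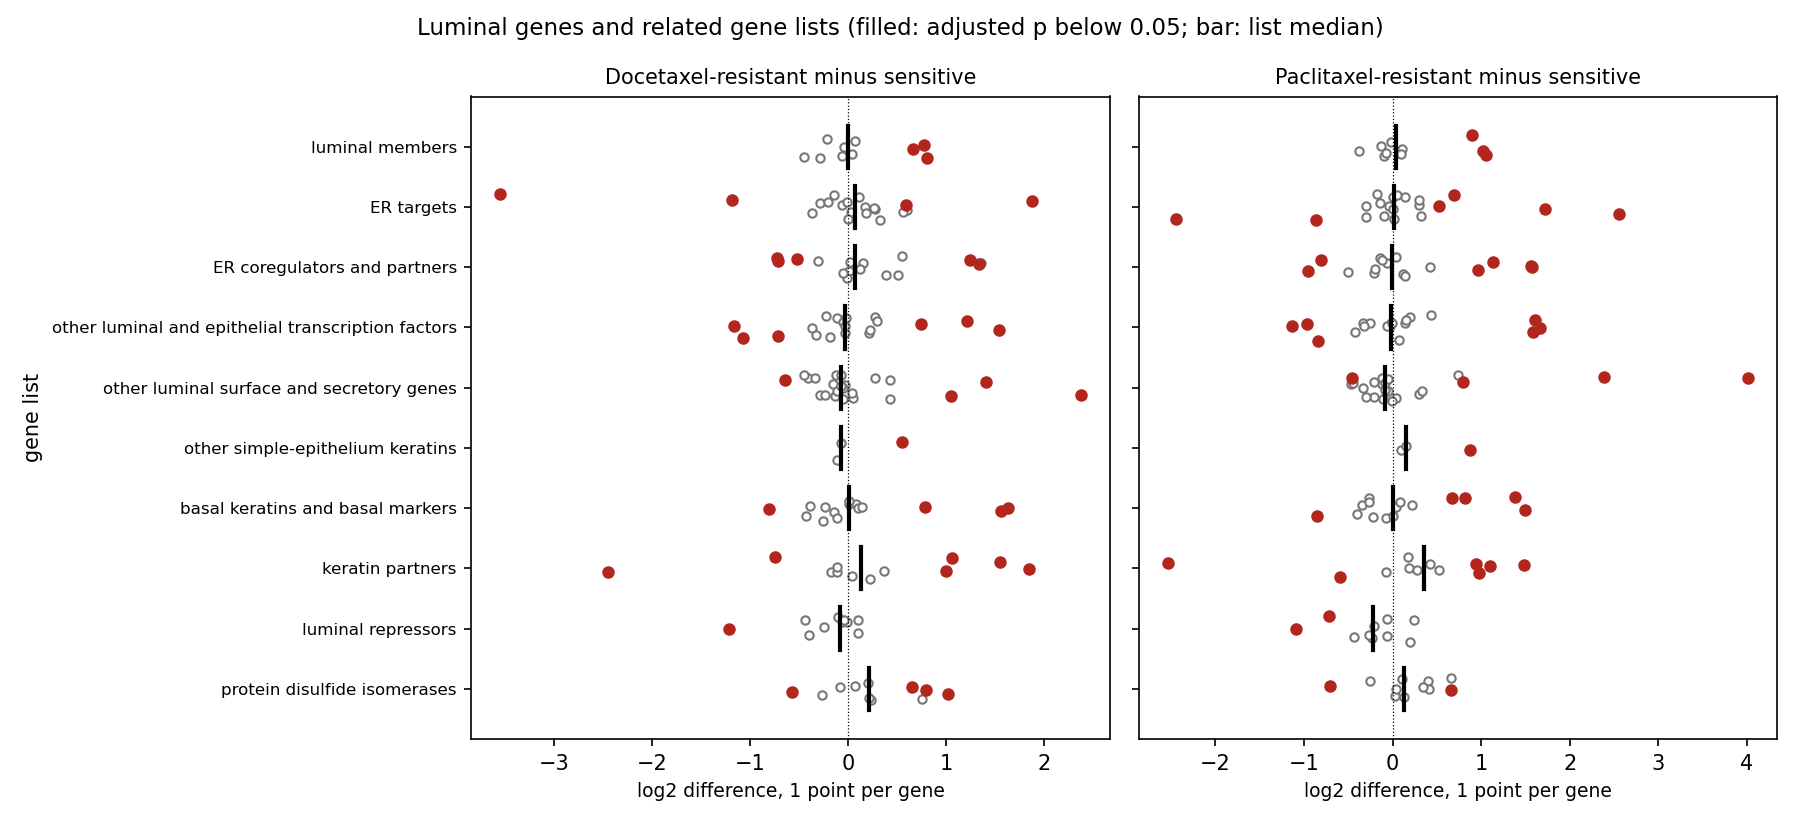
Log2 differences of the 10 luminal genes and 9 related lists, 1 point per gene, for both resistant lines against sensitive cells. Filled points have an adjusted p below 0.05 and short bars are list medians. All related lists except the other keratins of simple epithelia and the luminal repressors hold called genes on both sides of 0. The called luminal genes, 3 in each comparison on the probe set with the highest mean, lie above 0.

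Other cell types were checked by their markers. The mesenchymal markers that characterize MDA-MB-231 summed to 13335 to 16182 in sensitive, 9052 to 10202 in docetaxel-resistant and 10694 to 10879 in paclitaxel-resistant arrays, with 3 of 8 lower in each comparison and 1 of 8 higher in the second. VIM, the mesenchymal filament protein vimentin and 1 of the 3 called lower, fell by 0.74 and 0.60. Of the 8 markers 5 were not called in docetaxel-resistant and 4 in paclitaxel-resistant cells. Of 10 fibroblast markers 2 rose and 1 fell in docetaxel-resistant and 1 rose and 1 fell in paclitaxel-resistant cells, with sums of 362 to 450.2, 561 to 713 and 428 to 523, and LUM at most 4 on any array. Of 9 blood markers 1 rose and 1 fell in each comparison, with sums of 2280.4 to 3455 in sensitive, 3449 to 3889.8 in docetaxel-resistant and 2468 to 2799.8 in paclitaxel-resistant arrays, and PTPRC at most 11.6. Of 6 endothelial markers 1, PECAM1, fell in each, with sums of 140.1 to 206 in sensitive, 99.9 to 111 in docetaxel-resistant and 98.7 to 113 in paclitaxel-resistant arrays, which did not overlap the sensitive ones, and VWF was at most 6.86. Of 6 melanocytic markers only MITF was called, higher in both, and the sums were 206 to 250.3, 380.4 to 478 and 349 to 501. The 5 adipocyte markers were not called, with sums of 133 to 172, 111 to 149.9 and 113 to 127. Markers under 16 on all 9 arrays were 1 of 10 fibroblast (LUM), 1 of 9 blood (PTPRC) and 2 of 6 endothelial markers (VWF among them). The other markers of these lists reached 16 on at least 1 array, so the dim genes named do not stand for their lists. In these bulk samples fewer cells of a type and less RNA per cell cannot be told apart, and the part of these markers in the luminal values was not tested.

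Array medians ran from 33.7 (sensitive replicate 2) to 43.9 (docetaxel-resistant replicate 3), a spread of 0.27 on the log2 scale. Arrays of 1 group correlated at 0.97 to 0.991 over probe sets. For the bioC spike-in, sensitive replicate 3 gave 250.3 and the other arrays 72.9 to 105. Arrays carry no counts, so their number limits the precision, and the median standard error of a difference was 0.164.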

How the data were processed

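The deposited table held 1 linear intensity per probe set and array for 22283 probe sets (68 controls left out); per the submitters' processing notes, the authors used Affymetrix Expression Console 1.1.2 and PLIER, which summarizes probes into probe sets. No source used here gives their background correction, between-array scaling or detection calls. Each of the 9 columns entered the fit.

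Of the human probe sets 19065 named 1 gene, 1043 several and 2107 none. Values became log2(intensity + 16), and since array medians differed by 0.27 they were quantile-normalized. In R 4.3.3, limma 3.58.1 fitted 3 group means to all 22215 probe sets (6 residual and 5.82 prior degrees of freedom), with p-values two-sided and adjusted by Benjamini-Hochberg within each comparison. Intervals are 95%. On simulated data, 67, 67 and 66 of 22215 probe sets were changed by 0.5, 1 and 2. These changes were recovered in 5.97%, 61.2% and 95.5% of cases for docetaxel. The shares were 8.96%, 59.7% and 90.9% for paclitaxel and 5.97%, 61.2% and 92.4% between the lines. The simulations called 111 to 115 probe sets, against 3922 and 4128 in the comparisons with sensitive cells. Adjusted p depends on how many probe sets change, so these rates do not measure recovery in those comparisons.

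Members and gene lists were chosen with earlier results of these data known. Besides all members, the genes named were up to 3 called genes with the smallest adjusted p per list and comparison and the 2 of most like pattern to each moving member; XBP1, GREB1, CDH1, EPCAM, ERBB2, ERBB3 and the marker genes were named after their values were seen. Alternatives covered normalization, offset, low-value filter, spread model, probe set choice, replicate block and left-out arrays. Upstream sequences are RefSeq's on GRCh38.p14.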

Additional observations from a re-analysis of the deposited data

Results flagged for a closer look

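No member was called between the resistant lines, while 10 genes of the related lists were, by limma's test of paclitaxel-resistant minus docetaxel-resistant cells on the log2 scale. TFF1 was higher in the paclitaxel-resistant line by 1.95, TFF3 by 1.64 and MUC5B by 1.34. SERPINA1 was higher by 1.11, HES1 by 0.84 and MYLK by 1.81. ITGB4, an integrin subunit, was higher by 1.03 (limma adjusted p 0.0165) and was called on 1 of its 4 probe sets. Against sensitive cells that probe set was called lower in docetaxel-resistant cells (-0.81) and was not called in paclitaxel-resistant cells (0.22). MUC5B was called on 1 of 2, HES1 and SERPINA1 on 2 of 3 each and CA12 on 4 of 6. CA12, a carbonic anhydrase, differed by -0.89, TAGLN by -0.97 and KRT15 by -0.87, all lower in the paclitaxel-resistant line. Against sensitive cells the brightest CA12 probe set was called higher in docetaxel-resistant cells (0.59) and was not called in paclitaxel-resistant cells (-0.31). Of its 6 probe sets 3 were called higher in the first comparison and 1 lower in the second.

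TFF1 and MYLK kept this call under each alternative that tested them. HES1 lost it under 10 of 20 and ITGB4 under 9 of 20. HES1 lost it without any 1 of the 6 resistant arrays, and ITGB4 without any 1 of them except paclitaxel-resistant replicate 1. SERPINA1 lost it under 5 of 20, without docetaxel-resistant replicate 1 or 2 or paclitaxel-resistant replicate 1 or 3 and with an offset of 64. With an offset of 1 the calls of TAGLN, TFF3, MUC5B and CA12 were lost. TAGLN also lost it without docetaxel-resistant replicate 1 or 2, TFF3 without paclitaxel-resistant replicate 3 and KRT15 without docetaxel-resistant replicate 2.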

How the results depend on the processing

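FOXA1 stayed called in both comparisons with sensitive cells under the 20 of 21 alternatives that tested it, and no called member changed direction. The remaining alternative, the low-value filter, left FOXA1 out as too dim. Member calls changed in 19 of 482 docetaxel values (14 lost, 5 gained), 5 of 482 paclitaxel values (all lost) and 0 of 482 between the lines. The main fit called 5 docetaxel member probe sets, of 3 genes, and 6 paclitaxel ones, of 4 genes. With 1 test per gene the docetaxel genes called numbered 4 (brightest probe set) and 2 (mean of probe sets), and the paclitaxel genes 3 under either rule. Leaving out probe sets that may bind several transcripts, which removes all 5 of SPDEF, 2 probe sets were called in each comparison. Without the dimmest and brightest array (the 2 arrays of extreme median) 3 docetaxel probe sets were called. Leaving out 1 array gave 3 to 6 and 5 to 6. Over all probe sets or genes the docetaxel count of 3922 became 2529 and 2528 per gene (brightest probe set, mean), 1723 without those probe sets and 1970 without the 2 arrays, and 2447 to 3970 with 1 array left out. The paclitaxel count of 4128 became 2586, 2604 and 1838, and 3070 to 4263. Fewer features were tested in the per-gene and reduced sets. Between the lines 356 became 215 with no normalization, 84 with an offset of 1, 125 without those probe sets, 182 without the 2 arrays, and 111 to 421 with 1 array left out. The cause of these shifts was otherwise not tested. With no normalization 39.1% of calls between the lines were higher, beside an even split, and median scaling put the docetaxel median of all probe sets at -0.10. Equal replicate numbers did not pair the arrays (same-number correlations -0.404 to 0.295). Between groups, arrays of different numbers correlated at -0.426 to 0.432, and structure shared across groups was not tested. With the replicate block 4 docetaxel and 6 paclitaxel members and 214 probe sets between the lines were called, and SPDEF 213441_x_at in docetaxel-resistant cells had an adjusted p of 0.0597. Signal near the lower end of the scale limits FOXA1, ESR1 and PGR most.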
